A study of Mus musculus with 13 samples.

Results

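The genes described here encode nucleoporins, the proteins that build the nuclear pore, and 32 of them were taken by gene symbol, under a rule that sets no limit on any measured value. Of these, 30 were found by symbol in the deposited peak lists, which together name 18562 genes. *Ndc1*, which encodes a membrane nucleoporin, was listed under its older symbol *Tmem48* and is given apart from the 30. *Nup210l*, a paralog of *Nup210*, was in no list. The cells were 4T1, an aneuploid mouse mammary tumor line from a BALB/cJ mouse, and the libraries described here were made by chromatin immunoprecipitation and sequencing (ChIP-seq). The series also holds RNA-seq of sh-Ctrl and sh-Nup210 cells, 4 samples that are not used here. H3K4me3, a histone mark of active promoters, and H3K27me3, the mark of Polycomb repression, were each profiled in sg-Ctrl cells and in *Nup210* knockout (KO) cells. NUP210 itself and the nuclear pore proteins recognized by the antibody mAb414 (NPC) were profiled in sg-Ctrl cells alone. The KO line was N13, 1 clone grown from sorted cells. These carried a guide to an exon of *Nup210* and the sg-Ctrl line a non-targeting guide, both in the lentiGuide-puro vector. Cells with stable guides received Cas9 with GFP for a short time from an adenovirus. The paper states that sg-Ctrl and KO cells alike were later passaged to clear remaining Cas9-GFP signal. A difference between N13 and sg-Ctrl cannot be told apart from a difference between clones. Each of these 6 conditions had 1 library, so the difference between KO and sg-Ctrl could not be tested over replicates. The 95% intervals of reads, ratios and folds cover counting error only. The 95% order-statistic intervals of medians reflect the spread between genes and not that between libraries.

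Nuclear pores are ring-shaped channels through the nuclear envelope. The Y complex, the inner ring and the membrane nucleoporins form their scaffold, nucleoporins with phenylalanine-glycine (FG) repeats fill the central channel, filaments reach out from the cytoplasmic face, and a basket hangs into the nucleus. Several nucleoporins, among them those of the basket, are also known to touch chromatin. The antibody mAb414 recognizes FG-repeat nucleoporins such as NUP62, NUP153, NUP214 and RANBP2.

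The unit for H3K4me3 was the number of reads in the peak within 4 kb of the transcription start site (TSS), divided by the size of the library relative to its IgG library and by the width of the peak in kb. These are called scaled reads per kb. The library was 1.06 times its IgG library in sg-Ctrl cells and 1.35 times in KO cells. Ratios are log2 of KO over sg-Ctrl, so a negative value is a lower level in KO. Across 12197 genes with a TSS peak in both lists the median ratio was -0.50, and 88.7% of them were below 0, so each member is also set against that shift. Among cell type markers, 8 of 8 genes of mammary epithelium had a TSS H3K4me3 peak in both conditions. The same was true of 0 of 4 endothelial genes, 1 of 6 leukocyte genes (*Cd68*) and 1 of 4 fibroblast genes (*Pdgfra*).

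*Nup210*, the gene targeted in KO, encodes a glycoprotein that spans the pore membrane. Its TSS peak lay at chr6:91115401-91118000 in sg-Ctrl cells and chr6:91115401-91118200 in KO cells, over the start of a gene of 104 kb on the minus strand. Positions are those of the lists, whose gene coordinates match GRCm38. Reads in this peak numbered 885 in sg-Ctrl (95% Poisson interval 828 to 945) and 913 in KO (855 to 974), with 18 IgG reads in both. This is 321 and 242 scaled reads per kb. *Nup210* had the lowest level of the 30 members in both conditions, at percentile 20.03 of all genes in sg-Ctrl and 19.1 in KO. Its log2 ratio was -0.41 (95% interval -0.54 to -0.27), which is 0.09 above the median of all genes and 0.18 above that of the genes on chromosome 6. It was 0.01 when the libraries were scaled by the reads in peaks shared by both lists. The 15 genes with a TSS within 1 Mb had a median ratio of -0.44, and 8 of them were lower than *Nup210*. Since the guide cuts within an exon, H3K4me3 at the TSS does not check the knockout. The members nearest to *Nup210* in sg-Ctrl level and ratio together were *Nup205*, *Nup62*, *Gle1*, *Nupl2* and *Nup188*, at distances of 0.36 to 0.68 on the log2 scale over these 2 libraries.

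The promoters of 3 members are shown because they are the stretches under peaks on which the H3K4me3 results turn. They are those of *Nup210*, of *Ranbp2*, which was over 2-fold lower in KO by scaled reads per kb, and of *Rae1*, the 1 member that was higher by that measure. Each runs from 250 bases before the RefSeq start to 30 bases from it on and is written 5′ to 3′ on the strand of the gene, from the GRCm38.p6 reference and not from 4T1 cells. Capitals mark matches on either strand to the motifs named after them. The *Nup210* promoter (chr6:91116797-91117076, minus strand) holds 2 SP1 boxes. That of *Ranbp2* (chr10:58446602-58446881, plus strand) holds 1 TATA box, and that of *Rae1* (chr2:172999867-173000146, plus strand) holds 1 SP1 box and 1 ETS core.
Nup210: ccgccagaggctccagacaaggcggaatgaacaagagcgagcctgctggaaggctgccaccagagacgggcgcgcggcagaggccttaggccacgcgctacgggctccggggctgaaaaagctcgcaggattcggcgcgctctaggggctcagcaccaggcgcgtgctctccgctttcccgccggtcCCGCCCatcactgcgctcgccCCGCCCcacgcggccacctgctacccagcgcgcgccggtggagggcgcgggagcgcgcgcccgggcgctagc
Ranbp2: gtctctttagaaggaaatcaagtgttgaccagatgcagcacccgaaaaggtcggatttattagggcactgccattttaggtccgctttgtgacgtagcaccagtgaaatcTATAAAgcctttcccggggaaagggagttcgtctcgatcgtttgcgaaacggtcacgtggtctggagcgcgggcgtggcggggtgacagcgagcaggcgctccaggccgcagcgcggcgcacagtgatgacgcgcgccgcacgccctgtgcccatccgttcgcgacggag
Rae1: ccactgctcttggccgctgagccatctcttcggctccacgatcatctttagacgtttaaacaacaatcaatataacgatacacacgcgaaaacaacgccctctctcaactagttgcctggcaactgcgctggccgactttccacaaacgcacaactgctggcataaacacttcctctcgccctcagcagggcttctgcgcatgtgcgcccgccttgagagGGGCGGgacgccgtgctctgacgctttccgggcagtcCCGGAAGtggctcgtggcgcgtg

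RefSeq windows from 250 bases before to 50 bases after the start were matched for 27 of the 32 genes, *Ndc1* included, and *Nup35*, *Nup43*, *Nup85*, *Seh1l* and *Nup210l* had no match. In 26 of these 27 genes a window lay wholly inside the sg-Ctrl H3K4me3 peak. The exception was *Nup160*, whose peak (chr2:90678001-90682200) began downstream of its window. The windows had a median GC content of 63.7%, against 61.3% for genes with H3K4me3 in both lists and 52.7% for all promoters. Observed over expected CpG had a median of 0.90, against 0.77 and 0.38, so these are CpG-rich promoters like those of other genes that carry H3K4me3.

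Motif matches in these windows were counted on both strands, and each share is set beside that of promoters of the same length. Members were counted by gene, with a match in any of their windows (30 windows for 27 genes), but the other promoters singly. The SP1 box (GGGCGG) was in 18 of 27 genes (66.7%), against 64.1% of the promoters of genes with H3K4me3 and 35.7% of all promoters. It shares the letters GGGCG with the CTCF core (AGGGGGCGC), but there a C follows them, so these letters cannot match both at the same place. The CTCF core was in the windows of *Aaas* and *Nup133*, which is 7.41% against 2.33% and 1.25%. The ETS core (CCGGAAG) was in *Aaas*, *Gle1*, *Nup107*, *Nup155*, *Nup37*, *Nup54*, *Rae1* and *Sec13*, 8 genes (29.6%) against 18.1% and 8.86%. The NRF1 core (GCGCATGCG) was in *Nup107*, *Nup50*, *Nup62* and *Nupl1*, which is 14.8% against 3.86% and 1.75%. The YY1 core (AAGATGGCG) was in *Nup188*, *Nup205*, *Nup50* and *Nup88*, which is also 14.8%, against 3.08% and 1.40%. The CCAAT box (CCAAT) was in 10 genes (37.0%), against 37.9% and 37.4%, and the TATA box (TATAAA) in 3 (11.1%), against 6.57% and 13.6%. Of the TATA matches, those of *Nup160* and of a second window of *Nup93* (chr8:94266597-94266896) lay in windows that did not meet the gene's sg-Ctrl H3K4me3 peak. A match says only that these letters stand in the window.

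Every one of the 30 members had a TSS H3K4me3 peak in both sg-Ctrl and KO cells, against 65.7% of all 18562 listed genes. This was partly fixed by how members were found. The 15 members with no NUP210, NPC or H3K27me3 peak could be found only through an H3K4me3 list, so the share is not read as a result. The peaks of the 2 lists overlapped at each member. In sg-Ctrl their level ranged from 321 scaled reads per kb at *Nup210* to 1405 at *Tpr*, with a median of 714 against 543 over all genes. In KO it ranged from 242 to 819, at the same ends, with a median of 532 against 382. The middle member thus stood at percentile 71.03 of all genes in sg-Ctrl and 79.98 in KO. Most neighbours in the order of sg-Ctrl levels were not told apart by counting error, since the intervals of 24 of 29 neighbouring pairs met. The peaks of 6 members also lie within 4 kb of other genes' starts and cannot be assigned to 1 gene. These are *Nup43* (with *A630066F11Rik* and *Pcmt1*), *Nup37* (with *Parpbp*), *Nup188* (with *Dolk*), *Nup62* (with *Atf5* and *Nup62-il4i1*), *Nup88* (with *Rpain*) and *Tpr* (with *BC003331*).

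**Figure D1:**
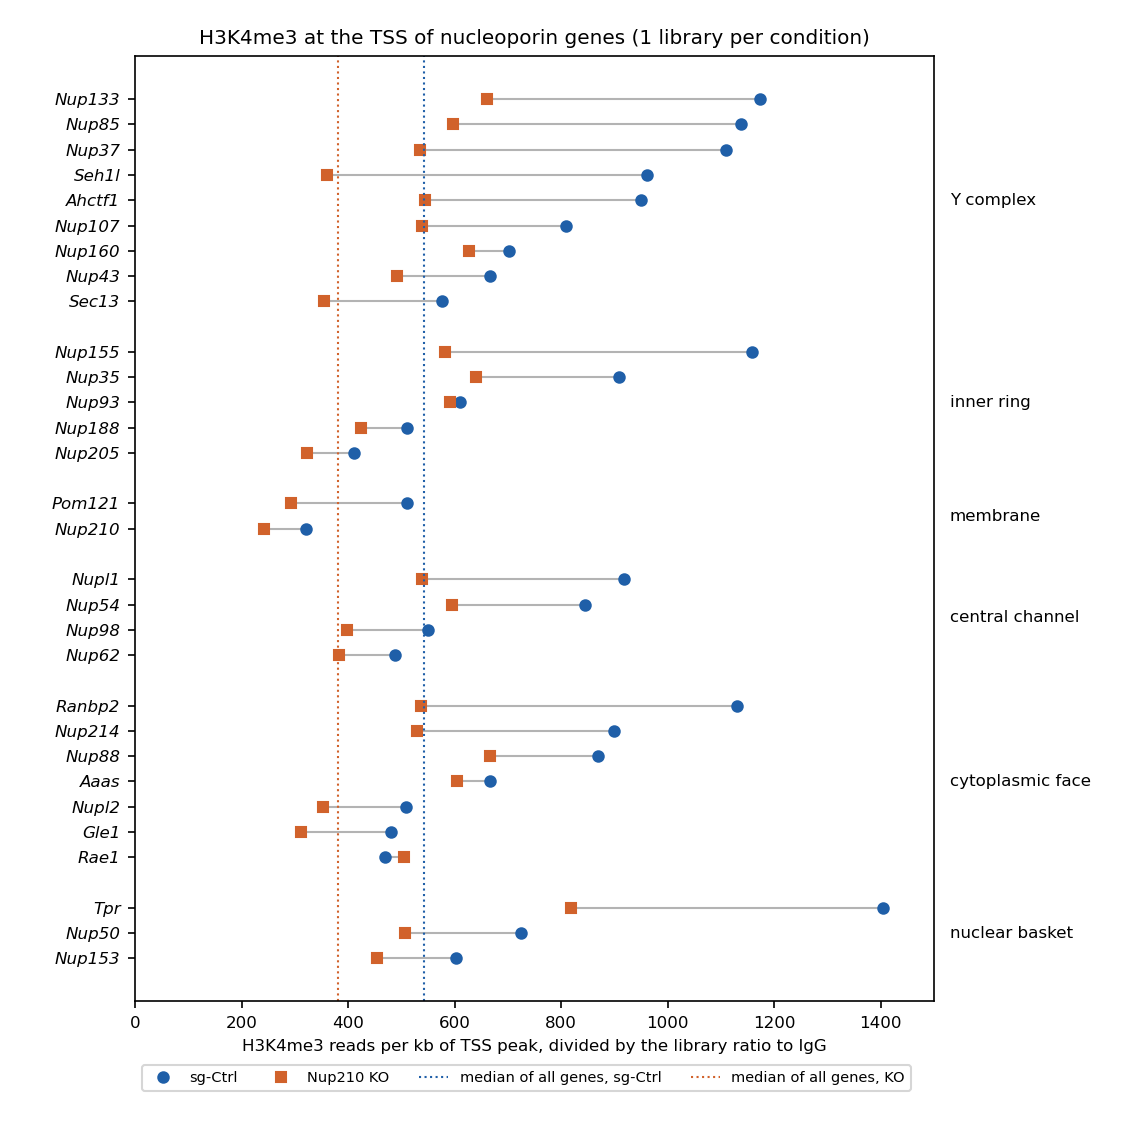
TSS H3K4me3 of the 30 nucleoporin genes in scaled reads per kb (horizontal axis), grouped by place in the pore, with 1 library per point, sg-Ctrl as circles and KO as squares, and dotted lines at the medians of all genes (543 and 382). In 29 of the 30 genes the KO square lies left of the sg-Ctrl circle, and the exception is *Rae1*.

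KO was lower than sg-Ctrl in 29 of 30 members (96.7%), and the median log2 ratio was -0.52 (95% order-statistic interval -0.77 to -0.41), close to the -0.50 of all genes. Of the 30, 12 lay above the median of all genes. With the libraries scaled by shared peaks, which adds 0.42 to each log2 ratio, the median was -0.10 against -0.08 over all genes, and 20 of 30 members were below 0, against 57.7% of all genes. A ratio of at least 2-fold lower was reached by *Seh1l*, *Ranbp2* and *Nup37*, 3 of 30, against 9.66% of all genes. Just short of it were *Nup155* (-0.99) and *Nup85* (-0.93). No member was 2-fold higher, against 0.525% of all genes. Among peaks compared by their total reads, with no division by width, *Seh1l* alone was 2-fold lower, against 7.63% of all genes. The fold over IgG that the authors deposited divides by the IgG reads of the peak and not by its width, and most of the genes it names are others. By that fold *Nup155* (-1.53), *Seh1l* (-1.42), *Gle1* (-1.38) and *Nup214* (-1.04) were 2-fold lower, against 17.5% of all genes, and *Nup188* (1.08) was 2-fold higher, against 2.48%. Of the 3 members 2-fold lower per kb, *Seh1l* was thus the 1 that was so by each of these 3 measures, and *Nup37* (-0.99) and *Ranbp2* (-0.72) fell short by the deposited fold. The median by total reads was -0.36 against -0.32 over all genes, and *Nup133* (0.17), *Nup93* (0.14), *Rae1* (0.21) and *Aaas* (0.03) were above 0.

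The peaks were wider in KO at 23 members, narrower at 6 and equal at *Seh1l*, with a median width of 4500 bp in sg-Ctrl and 5100 bp in KO. Over all genes the medians were 3600 and 4200 bp, and 63.1% of peaks were wider in KO. Those of 4 members grew by 1.5 times or more (13.3%, against 13.7% of all genes). They were *Nup133* (3000 to 6000 bp), *Nup85* (3000 to 5600 bp), *Nup155* (4000 to 7200 bp) and *Gle1* (2400 to 3600 bp). At these 4 genes the ratio per kb (-0.83, -0.93, -0.99 and -0.62) and the ratio of total reads (0.17, -0.03, -0.14 and -0.04) stood far apart. Their lower level per kb thus went with a similar number of reads, after scaling by library size, spread over a wider peak. The KO library was the larger relative to IgG, at 1.35 times against 1.06 times. The part of depth in peak width was not tested.

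**Figure D2:**
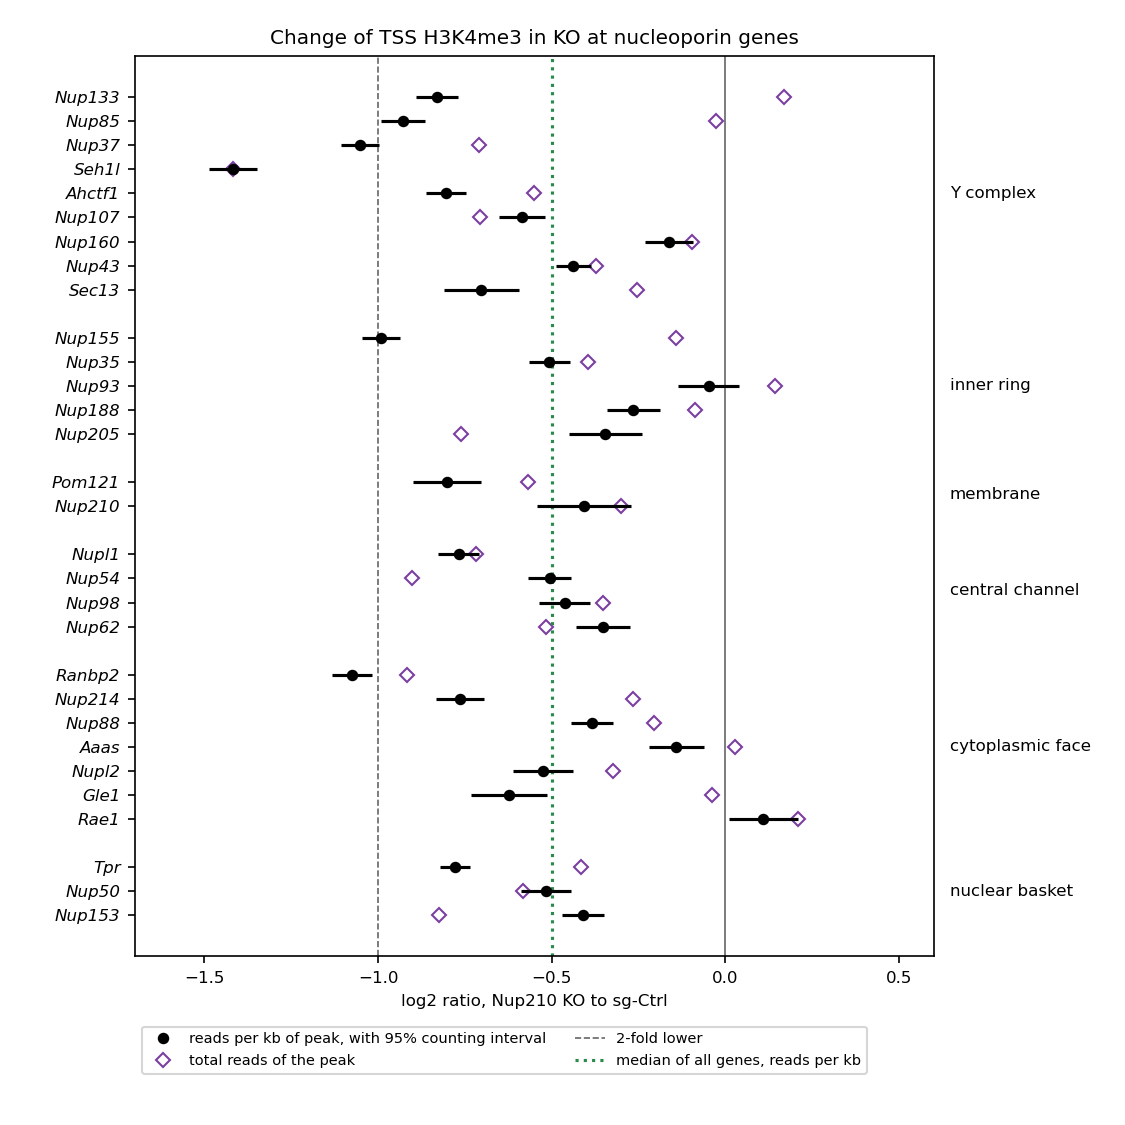
log2 ratio of TSS H3K4me3 in KO to sg-Ctrl for each nucleoporin gene, by reads per kb (filled circles, bars for the 95% counting interval) and by total reads of the peak (open diamonds). The dashed line marks 2-fold lower and the dotted line the median of all genes (-0.50). *Seh1l*, *Ranbp2* and *Nup37* lie beyond the dashed line per kb, and at *Seh1l* both measures coincide.

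The Y complex, the scaffold that also caps the pore on both faces, had a median ratio per kb of -0.80 over 9 genes (95% order-statistic interval -1.05 to -0.44, which holds the -0.50 of all genes), and all 9 were below 0. By total reads its median was -0.37 and 8 of 9 were below 0, and the medians of the central channel (-0.62), the basket (-0.58) and the membrane group (-0.43) were lower. *Seh1l* encodes a small beta-propeller protein of this complex that also works in nutrient sensing by the GATOR complex. Its peak had the same bounds and the same 58 IgG reads in both lists, 5200 bp wide, with 5301 ChIP reads for sg-Ctrl and 2521 for KO. That is 961 and 360 scaled reads per kb, a log2 ratio of -1.42 (95% interval -1.49 to -1.35), the lowest of all members. *Seh1l* lies on chromosome 18, where the median ratio was -0.72 and 19.0% of genes were 2-fold lower. All 14 genes with a TSS within 1 Mb had a higher ratio than *Seh1l*, although their median was -0.68 and 5 of them were 2-fold lower.

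*Nup37*, another beta-propeller subunit, had 6121 reads in sg-Ctrl and 4756 in KO. Its level was 1110 and 535 scaled reads per kb, with a log2 ratio of -1.05 (95% interval -1.11 to -0.998) and of -0.71 by total reads. The sg-Ctrl list had 2 peaks near this TSS and the KO list 1, and with all peaks near the TSS summed the ratio was -0.59. The 8 genes within 1 Mb had a median ratio of -0.09, and none was lower than *Nup37*. The highest ratio of the complex was that of *Nup160*, with 3132 and 3723 reads and 703 and 628 scaled reads per kb. Its log2 ratio was -0.16 (95% interval -0.23 to -0.09). The remaining subunits lay between *Nup37* and *Nup160*. *Nup133* (1174 and 660 scaled reads per kb), *Nup85* (1137 and 597), *Ahctf1* (950 and 544, encoding ELYS, which seeds pores on chromatin), *Nup107* (809 and 540), *Nup43* (667 and 493) and *Sec13* (577 and 354) had log2 ratios from -0.93 to -0.44.

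The inner ring, which lines the channel and anchors it to the membrane, had a median ratio of -0.35 over 5 genes. *Nup155* was lowest at -0.99 (95% interval -1.05 to -0.94), from 4914 reads in sg-Ctrl and 5651 in KO, or 1158 and 582 scaled reads per kb. Its IgG reads were 66 and 173 in peaks of different width. *Nup93*, the ring's linker hub, was highest at -0.05 (95% interval -0.14 to 0.04), with 1815 and 2548 reads, or 611 and 591 scaled reads per kb. Its interval is the only one of the 30 that holds 0. Between them stood *Nup35* (-0.51), *Nup205* (-0.35) and *Nup188* (-0.26). At *Nup188* the IgG reads were 18 in sg-Ctrl and 8 in KO. At *Nup205* the peak narrowed from 4000 to 3000 bp, and the ratio of total reads was lower (-0.76).

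The membrane group had peaks at *Nup210* and at *Pom121*, which encodes a pore membrane protein. *Pom121* had 1842 reads in sg-Ctrl and 1578 in KO, or 511 and 293 scaled reads per kb, and a log2 ratio of -0.80 (95% interval -0.90 to -0.71). *Tmem48*, the older name of *Ndc1*, had 2056 and 1491 reads, or 570 and 277 scaled reads per kb, and a log2 ratio of -1.04 (95% interval -1.14 to -0.95). With it 4 of 31 genes were 2-fold lower, against 9.66% of all genes. *Nup210* had the highest ratio of these 3 membrane genes.

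In the central channel, whose FG repeats form the permeability barrier, the median ratio was -0.48 over 4 genes. *Nupl1*, which encodes NUP58, was lowest at -0.77 (95% interval -0.83 to -0.71), with 5452 reads in sg-Ctrl and 4212 in KO, or 918 and 539 scaled reads per kb. *Nup62*, the core of the channel complex, was highest at -0.35 (95% interval -0.43 to -0.27), with 2902 and 2579 reads, or 488 and 383 scaled reads per kb. Their intervals do not meet. *Nup54* (845 and 595 scaled reads per kb, -0.51) and *Nup98* (550 and 399, -0.46) stood between.

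The cytoplasmic face held both a member past 2-fold and the member with the highest ratio, and its median over 7 genes was -0.53. *Ranbp2* encodes the large filament protein with SUMO ligase activity. Its peak (chr10:58445201-58450400 in sg-Ctrl and chr10:58444201-58450000 in KO) contained 6233 ChIP reads in sg-Ctrl and 4191 in KO. Its level was 1130 and 536 scaled reads per kb, with a log2 ratio of -1.08 (95% interval -1.13 to -1.02) and of -0.92 by total reads. The 9 genes within 1 Mb had a median ratio of -0.90, and 3 of them were lower than *Ranbp2*.

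*Rae1*, an mRNA export factor, had a peak at chr2:172999201-173002000 in sg-Ctrl and chr2:172999201-173002200 in KO, with 1394 and 2046 reads and 5 IgG reads in both. Its level was 469 and 506 scaled reads per kb, and the log2 ratio was 0.11 (95% interval 0.01 to 0.21). It moved from percentile 39.9 of all genes in sg-Ctrl to 75.9 in KO. Its 11 neighbours within 1 Mb had a median ratio of -0.20, and 7 of them were lower than *Rae1*. *Aaas*, whose product is ALADIN, came next with 667 and 605 scaled reads per kb and a log2 ratio of -0.14. *Nup88* (-0.38), *Nupl2* (-0.53), *Gle1* (-0.62, the activator of an mRNA export helicase) and *Nup214* (-0.76) lay lower.

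The nuclear basket had a median ratio of -0.52 over 3 genes. *Tpr*, which encodes the basket's main coiled-coil protein, had the highest level of all members in both conditions, with 8347 reads in sg-Ctrl and 7947 in KO, or 1405 and 819 scaled reads per kb (percentile 98.7 and 98.1). Its log2 ratio was -0.78 (95% interval -0.82 to -0.73). *Nup153*, which joins the basket to the pore, was highest at -0.41 (95% interval -0.47 to -0.35), with 5122 and 3673 reads, or 604 and 454 scaled reads per kb. Its peak narrowed from 8000 to 6000 bp, and its ratio of total reads was -0.82. *Nup50* (725 and 507 scaled reads per kb) lay between, at -0.52.

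Chromosomes differed in their median ratio, which bears on members that share one. The 4 members on chromosome 10 (*Nup107*, *Nup43*, *Nup37* and *Ranbp2*) had a median of -0.82, against -0.63 for all genes of that chromosome. The 6 members on chromosome 2 (*Nup160*, *Nup35*, *Nup188*, *Nup214*, *Gle1* and *Rae1*) had a median of -0.39, against -0.42. Relative to its own chromosome's median, no member was 2-fold lower, against 0.844% of all genes. The median member was then at -0.08. 4T1 cells are aneuploid, and the part of chromosome copy number in these ratios was not tested.

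Receptors and Ran cycle genes, which carry cargo through the pore, were taken as the other genes of the pathway. Of 34 such genes, 33 had a TSS H3K4me3 peak in both lists, and *Kpna7* had one in neither. Their median log2 ratio was -0.70 (95% order-statistic interval -0.78 to -0.60), and 33 of 33 were below 0, against 88.7% of all genes. A ratio at least 2-fold lower was reached by 4 of 33, against 9.66% of all genes, and by total reads by 2 of 33, against 7.63%. At least 2-fold lower per kb were *Ipo5* (954 and 376 scaled reads per kb, -1.34), *Ran* (1099 and 474, -1.21), *Xpot* (1040 and 498, -1.06) and *Ipo11* (833 and 407, -1.03). By total reads the 2 were *Ipo5* (-1.23) and *Xpo7* (-1.04). *Ran* (-0.78), *Xpot* (-0.71) and *Ipo11* (-0.08) fell short by that measure, and the *Ipo11* peak widened from 3000 to 5800 bp. *Ipo5* and *Ipo11* encode importins, *Xpot* the tRNA exporter and *Ran* the GTPase that sets the direction of transport. The highest ratios were those of *Nutf2* (-0.09), *Kpna4* (-0.16) and *Rangap1* (-0.23). *Nutf2*, the import factor for Ran itself, had a peak that widened from 8600 to 16000 bp and a ratio of total reads of 0.81. That peak also lies within 4 kb of the starts of *Cenpt*, *Nutf2-ps1* and *Thap11* and cannot be assigned to *Nutf2*.

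NUP210 peaks lay on the gene bodies of 14 of 30 members (46.7%), against 26.3% of all genes with TSS H3K4me3. NPC peaks lay on 15 of 30, against 24.9%. All 14 genes with a NUP210 peak also had an NPC peak, *Nup43* had NPC peaks alone, and 15 members had neither. Such overlap was common, since 74.7% of NUP210 peaks on all genes with TSS H3K4me3 met an NPC peak. Of the NPC peaks on those genes, 82.5% met a NUP210 peak. Many deposited peaks of these libraries are weak, since 31.0% of NUP210 peaks and 48.3% of NPC peaks have a false discovery rate (FDR) above 0.05. At an FDR of at most 0.05, 10 members had a NUP210 peak (33.3%, against 20.5%) and 10 had an NPC peak (33.3%, against 16.2%). Of these, 6 had both, 4 had NUP210 alone and 4 had NPC alone. How many of all genes had both targets was not counted. No peak on a member was 2-fold over IgG for either target, and few genes had one in all (1.35% for NUP210 and 0.189% for NPC).

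Long genes meet more peaks, and the members are long, with a median of 31.7 kb against 19.4 kb over all genes. Members with a NUP210 peak had a median length of 49.2 kb, and those without 20.1 kb. Among genes under 20 kb, NUP210 peaks lay on 2 of 10 members against 10.6% of all genes. From 20 to 50 kb they lay on 5 of 9 against 29.8%, and from 50 kb on 7 of 11 against 57.9%. For NPC the same classes gave 3 of 10 against 9.68%, 5 of 9 against 28.0% and 7 of 11 against 55.6%. At an FDR of at most 0.05 the NUP210 counts were 1 of 10, 3 of 9 and 6 of 11, against 6.83%, 21.4% and 50.3%. In the longest class the members' share was near that of other genes of this length, and in the shorter classes the counts are small. *Nup210*, at 104 kb the longest member, had neither a NUP210 nor an NPC peak.

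**Figure D3:**
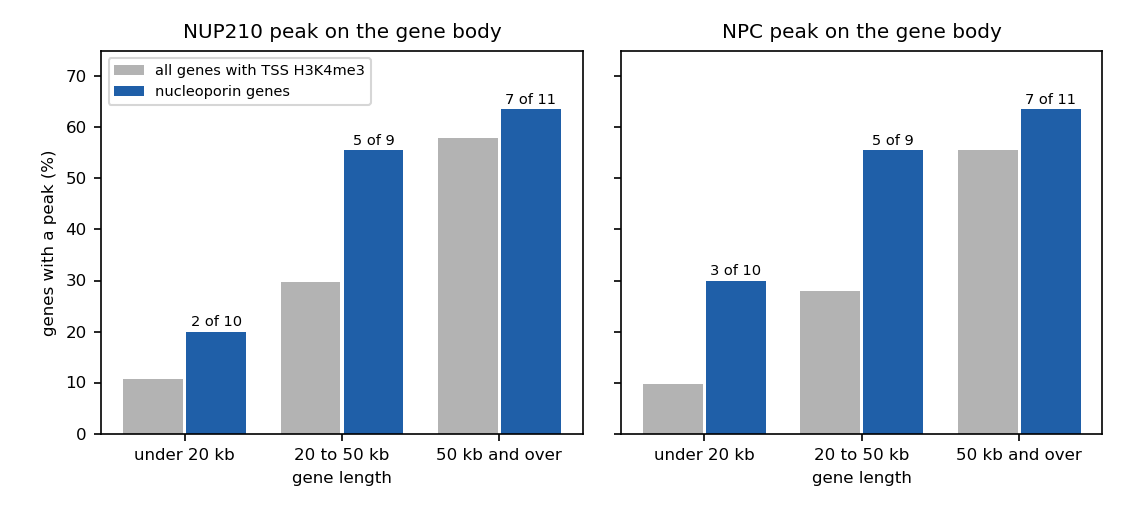
Percent of genes with a NUP210 peak (left) or an NPC peak (right) on the body of genes in sg-Ctrl, by class of gene length, for all genes with TSS H3K4me3 (gray bars) and for the nucleoporin genes (blue bars, with the number of genes above each). The share climbs with length in both sets, from 10.6% to 57.9% of all genes for NUP210.

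The 20 NUP210 peaks on members were broad and low. They were 8 to 93 kb wide, with a median of 24.5 kb against 15 kb for the 6265 peaks on all genes with TSS H3K4me3. Their fold over IgG ran from 0.852 to 1.70, with a median of 1.15 against 1.16, and 14 of the 20 passed an FDR of 0.05, against 64.4%. For 2 of these 14 the 95% counting interval of the fold held 1. NPC peaks were met by 16 of the 20, against 74.7% of the peaks on all those genes. The gene start was covered by 4, the gene end by 7, and the sg-Ctrl TSS H3K4me3 peak of the same gene was met by 9. Of the peaks on all those genes, 24.9% met a sg-Ctrl H3K4me3 peak of any gene, which is a wider measure.

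The largest excess of reads was on *Ranbp2*, where 1 NUP210 peak (chr10:58450001-58502000) covered 93.3% of the gene. It held 1619 reads against 1151 scaled IgG reads, a fold of 1.41 (95% interval 1.30 to 1.52) with an FDR of 7.44e-37. It began 6.66% of the way into the gene and ran past its end. *Nup98*, which encodes an FG nucleoporin that also moves into the nuclear interior, carried 4 separate NUP210 peaks, all past an FDR of 0.05, with folds of 1.70, 1.20, 1.25 and 1.32 from the start of the gene to its end. The first of these (chr7:102192001-102201000) held 292 reads against 172 scaled IgG reads, the highest fold on any member.

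*Nup205* had 1 peak with a fold of 1.51 (310 against 205 scaled IgG reads, FDR 2.17e-11) and another that did not pass. On *Tpr* a NUP210 peak of 93 kb (chr1:150361001-150454000) covered the whole gene, with 2759 reads against 2426 scaled IgG reads, a fold of 1.14 and an FDR of 8.05e-11. *Nup93* had 2 peaks past the FDR, with folds of 1.26 and 1.15. The other members past it had folds of 1.20 (*Nup160*), 1.18 (*Nup35*), 1.15 (*Nupl2*), 1.12 (*Nup155*) and 1.09 (*Nup153*). The peaks on *Ahctf1*, *Nup37*, *Nup54* and *Nupl1* did not pass, with folds of 1.01, 1.01, 1.08 and 0.916. No one group of the pore held these genes, since the 10 members past the FDR included 4 of the inner ring (*Nup35*, *Nup93*, *Nup155* and *Nup205*), *Nup160* of the Y complex, *Nup98* of the channel, *Ranbp2* and *Nupl2* of the cytoplasmic face, and *Tpr* and *Nup153* of the basket.

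**Figure D4:**
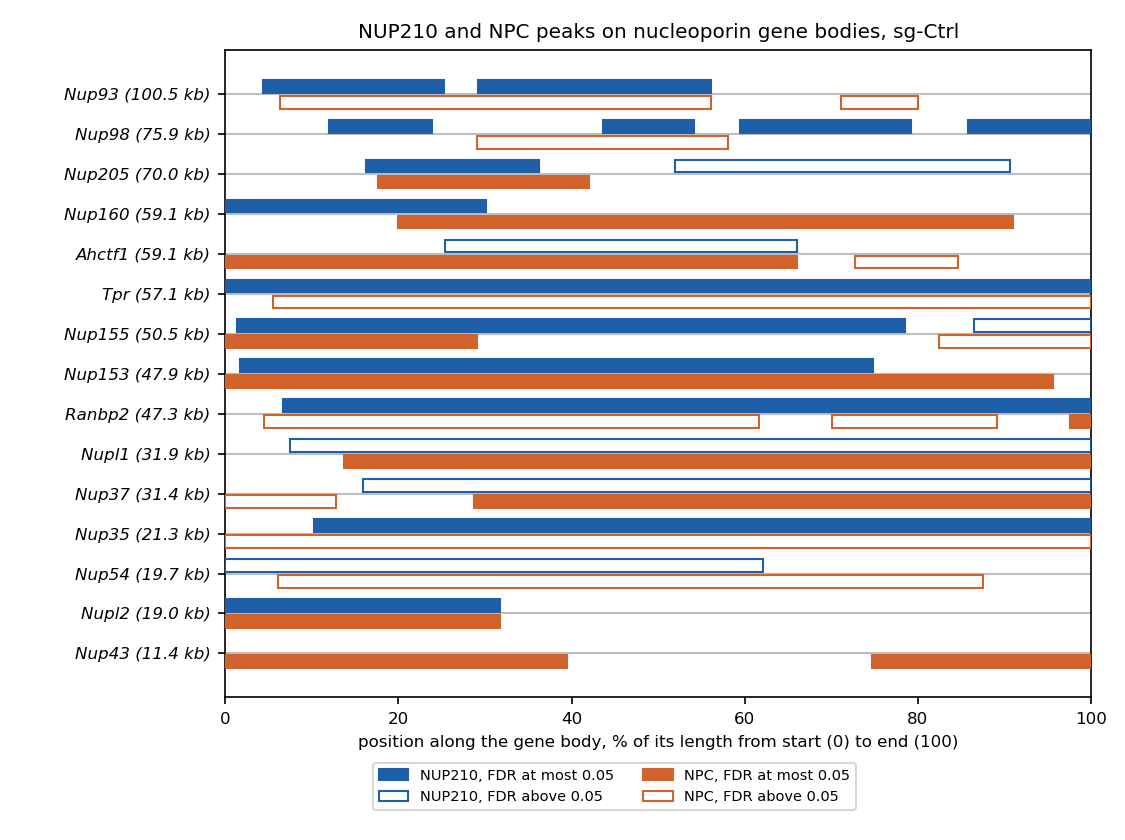
NUP210 peaks (blue, upper bar) and NPC peaks (orange, lower bar) on the 15 members that carry any, drawn along the gene body from start (0%) to end (100%), with filled bars for an FDR of at most 0.05 and genes ordered by length. *Tpr* is covered whole by 1 NUP210 peak, *Nup98* holds 4 separate ones, and *Nup43* holds NPC peaks alone.

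The 22 NPC peaks on members had folds from 0.913 to 1.36, with a median of 1.08 against 1.09 on all genes with TSS H3K4me3. Fewer reads than scaled IgG were in 6 of them, against 23.8% of the peaks on all those genes, and 11 peaks on 10 genes passed an FDR of 0.05, against 48.7%. For 3 of the 11 the interval of the fold held 1. The highest fold was that of a peak at the end of *Ranbp2* (chr10:58493001-58504000), with 221 reads against 163 scaled IgG reads, 1.36 (95% interval 1.13 to 1.63). *Nup205* (1.27) and *Nup155* (1.25) followed. The others were *Nup43* (1.19 and 1.15), *Nup153* (1.14), *Nupl2* (1.13), *Ahctf1* (1.09), *Nup160* (1.09), *Nup37* (1.09) and *Nupl1* (1.08). The genes *Nup62* and *Nup214*, which encode proteins that mAb414 recognizes, had no NPC peak.

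Members with and without NUP210 on the gene body lay close in H3K4me3 ratio. The 14 members with a NUP210 peak had a median log2 ratio of -0.52, and the 16 without one of -0.55. Over all genes the medians were -0.60 for 3212 genes with a peak and -0.46 for 8985 without. The 3 members past 2-fold were split, since *Ranbp2* carried a NUP210 peak past the FDR, *Nup37* one that did not pass, and *Seh1l* none. *Tmem48* carried neither NUP210 nor NPC. Of 33 transport genes, 12 had a NUP210 peak, against 26.3% of all genes, and 11 had one at an FDR of at most 0.05, against 20.5%. An NPC peak lay on 11 of them, against 24.9%, and on 7 at that FDR, against 16.2%. By length, NUP210 peaks lay on 0 of 9 transport genes under 20 kb, 3 of 14 from 20 to 50 kb and 9 of 10 from 50 kb on. The shares of all genes in these classes were 10.6%, 29.8% and 57.9%. NPC peaks lay on 0, 2 and 9 transport genes, against 9.68%, 28.0% and 55.6% of all genes.

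H3K27me3 peaks lay on the body of 0 of 30 members in sg-Ctrl cells, against 5.46% of all genes with TSS H3K4me3, and of 0 of 30 in KO cells, against 4.3%. The 33 transport genes had none in either condition. The H3K27me3 lists hold peaks paired with gene bodies, so peaks between genes are not seen in what follows. Within 100 kb of the gene, 8 of 30 members had such a listed H3K27me3 peak in each condition (26.7%), against 38.9% of all genes in sg-Ctrl and 36.6% in KO. The nearest was that of *Sec13*, a coat protein shared by the pore and secretory vesicles. In sg-Ctrl a peak on the neighbouring gene *Atp2b2* (chr6:113741001-113748000, 188 reads against 47 IgG reads as counted, 4.72-fold over IgG) lay 319 bp from *Sec13* and met its TSS H3K4me3 peak (chr6:113739201-113741400). In KO the *Atp2b2* peak (chr6:113742001-113748000, 3.93-fold) lay 1319 bp away and did not meet it. *Sec13* was the 1 member whose H3K4me3 peak met H3K27me3 in sg-Ctrl, against 3.12% of all genes, and 0 members did in KO, against 2.47%.

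The nearest listed H3K27me3 peak, which is one on a gene body, lay closer in KO at 12 members, farther at 11 and at the same distance at 7. A nearer peak between genes would not be seen. The median distance was 199 kb in sg-Ctrl and 178 kb in KO, against 157 and 175 kb over all genes. Among those closer in KO, for *Nup214* the distance was 2915 kb in sg-Ctrl and 325 kb in KO, for *Nup62* 1193 and 425 kb, for *Rae1* 450 and 100.3 kb, and for *Nup153* 383 and 68.9 kb. Among those farther in KO, it was 70.6 and 115 kb for *Nup107*, 193 and 248 kb for *Nup85*, 430 and 470.1 kb for *Nup155* and 536 and 572 kb for *Seh1l*. For *Tmem48*, outside the 30, it was 649.8 and 2787 kb. The KO library was the deeper of the pair for this mark, at 2.68 times its IgG library against 0.847 times, and the part of depth in these distances was not tested. For *Nup210* the distance was 300.2 kb in both conditions.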

How the data were processed

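ChIP-seq peak lists of 4T1 cells were analysed, 1 library for each of 6 conditions. The authors called peaks with SICER against IgG, with windows of 1000 bp, or 200 bp where the target was H3K4me3, and paired them with gene bodies or, where it was H3K4me3, with a region of 4 kb to each side of the TSS. For each peak the authors deposited raw counts of ChIP and IgG reads, a p-value and an FDR. They also deposited a fold, the ratio of ChIP to IgG reads after scaling by library size. The submitters' processing notes name Bowtie2, STAR, Picard and Trimmomatic and more than 1 genome build without a role, and the build of the ChIP-seq alignment is not given in the sources used here. At 28 of 30 members the gene's start or end lay within 50 bp of that in GRCm38.p6. No use was made of the 4 RNA-seq samples, and the 3 IgG samples entered through the lists' IgG reads alone.

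The size of each ChIP library relative to IgG was recovered from the counts and folds of its list (in sg-Ctrl 1.06 for H3K4me3, 0.847 for H3K27me3, 1.01 for NUP210 and 0.606 for NPC, and in KO 1.35 for H3K4me3 and 2.68 for H3K27me3). Total depth is unknown beyond these ratios and the 5866175 to 26811061 reads in the peaks of a list. For genes with several TSS peaks the one with the most reads per kb was used. Background counts are over the 12197 genes with a TSS H3K4me3 peak in both lists. Overlap required 1 bp. Intervals are exact Poisson for reads, conditional exact binomial for ratios and order statistics for medians, at 95%. Reads are not counted by molecule, so those of reads and ratios cover counting error only. Those of medians reflect the spread between genes, which are not replicates of a condition. Named genes are *Nup210*, the lowest and highest ratio of each pore group, members past 2-fold or with a NUP210 or NPC peak at an FDR of at most 0.05, and at most 3 transport genes per direction. *Ipo11* (past 2-fold per kb), *Xpo7* (past 2-fold by total reads) and members given to account for all 30 were named beyond it. The rule for the members uses gene symbols alone, but it, the gene lists, the motifs and the shown promoters were chosen with earlier results of these data known. The ratio steps were tested on simulated data. Alternatives were other scalings, total reads, the deposited fold, summed peaks, IgG subtraction, stricter peak limits and *Tmem48* as *Ndc1*. Scripts ran in Python 3.11.15 with scipy 1.17.1, pandas 2.3.3, numpy 2.4.6 and, to draw, matplotlib 3.10.9.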

Additional observations from a re-analysis of the deposited data

How the results depend on the processing

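Of 48 alternative values for 8 results, 27 stayed close to the value reported, 18 moved and 3 turned in sign. Scaling and division by width moved the H3K4me3 ratios. The median log2 ratio of H3K4me3 over the nucleoporin genes (-0.52) was -0.10 with the libraries scaled by reads in shared peaks, -0.36 by total reads, -0.084 relative to the median of the same chromosome and -0.021 relative to that of all genes, the last 2 chosen after seeing the data. The number of members at least 2-fold lower (3) was 0, 1, 0 and 0 in the same order. Over all genes the shares were 1.25%, 7.63%, 0.844% and 0.926%. The number was 2 with all TSS peaks summed (without *Nup37*), against 9.21% of all genes. By the deposited fold it was 4, against 17.5%, and *Seh1l* alone of these is shared with the 3. The transport genes' median (-0.70) was -0.28, -0.53, -0.16 and -0.20. At *Nup210* the ratio (-0.41) turned to 0.015, 0.18 and 0.093 under shared peaks, the chromosome median and the median of all genes, and was -0.30 by total reads. These 3 settings add a shift by construction. At an FDR of at most 0.01 NUP210 peaks (14 members) lay on 9, against 18.8% of all genes. They lay on 8 where 1 peak had to cover 50% of the gene, against 10.1%, and on 0 at 2-fold over IgG, against 1.35%. NPC peaks (15 members) lay on 7, 9 and 0, against 13.7%, 9.71% and 0.189%. H3K27me3 stayed at 0 members in both conditions under each limit tried.

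No paired analysis was possible because each condition has 1 library, so neither replicates nor tests exist. Counting error is small at H3K4me3 peaks, but the spread between cultures and clones is unknown. NUP210 and NPC folds lie near 1, so at this depth a peak that is not listed does not show absence of binding.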
